A study of Mus musculus with 6 samples.

Results

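The thrombospondins, tenascins, periostin, SPARC, fibronectin, CCN proteins, osteopontin and matrilins are secreted proteins that sit in the matrix around cells and act mainly on adhesion, growth factor activity and matrix assembly. Expression of 10 of their genes was examined in 3 lines of mouse endothelial cells, which had been differentiated from embryonic stem cells: Thbs1, Thbs2, Tnc, Postn, Sparc, Fn1, Ccn1, Ccn2, Spp1 and Matn2. A gene was taken where a probe set of the array was annotated to its symbol alone. That held for 9 of the 10 members, each with 1 probe set, among 19936 genes in all, and Spp1 was not analysed here. No filter on signal was applied, so the 9 members were tested whatever their level.

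The lines are named by the cadherin that their labels say they express. VE+N cells express VE-cadherin and N-cadherin, VE cells express VE-cadherin, and N cells express N-cadherin. The labels give no other allele or agent, and they do not say how each line was made. Each line is represented by 2 arrays from 2 RNA extractions. The 3 lines had the same culture: they were plated at 50000 cells/cm2, were confluent within 24 h and were cultured for 72 h. They were then deprived of serum for 18 to 20 h with 1% albumin present, and 20% serum is also listed for each line. Because each cadherin state is a single line, a difference between cadherin states cannot be told apart from any other difference between the lines. The titles call the 2 arrays of a line biological replicates, and the sources used here do not say whether their RNA came from separate cultures. The p-values rest on the spread between the 2 replicates of a line, pooled over the 3 lines and moderated over all genes. They do not measure a spread between separate lines of the same cadherin state.

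Matricellular proteins contribute little to the strength of the matrix. They bind integrins and other receptors, collagen and growth factors, and many are low in resting tissue and high in development, wound repair and fibrosis. In vessels, thrombospondins are known as inhibitors of angiogenesis, CCN proteins as products of stretch, YAP/TAZ and TGF-beta signalling, and fibronectin as the early scaffold on which other matrix proteins assemble.

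The labels were checked on the cadherin genes. Cdh2, which encodes N-cadherin, had log2 signals of 6.69 and 6.70 in VE+N cells, 5.80 and 5.93 in VE cells and 7.66 and 7.67 in N cells, lowest in the line not labelled with N-cadherin. Cdh5, which encodes VE-cadherin, had 7.05 and 7.16 in VE+N cells, 7.05 and 6.83 in VE cells and 7.26 and 7.30 in N cells, and none of its 3 differences passed the test (adjusted p between 0.0917 and 0.462). For VE against N the Cdh5 difference of −0.34, against the direction of the labels, was called with median centring (−0.44, adjusted p = 0.033), quantile normalization again (−0.39, adjusted p = 0.0412) and a trended robust prior (adjusted p = 0.0497). Lines are called by their labels. Median log2 signals ran from 4.85 to 4.91 over the arrays. The mean log2 signal over 15 endothelial markers was 10.4 and 10.5 in VE+N cells, 9.91 and 9.86 in VE cells and 9.71 on both arrays of N cells. Of the 15, 6 rose and 1 fell in VE+N against N cells, 3 rose and 3 fell in VE against N cells, and 6 rose and 0 fell in VE+N against VE cells. Of all genes, 19.1%, 15.4% and 10.1% were called in either direction in these comparisons. Vwf had log2 signals of 9.22 and 9.46 in VE+N cells, 6.56 and 6.66 in VE cells and 5.24 and 5.18 in N cells. Cldn5 was likewise lowest in N cells, at 6.14 and 6.34. These genes had the largest differences of the 15 for VE+N against N cells (4.13 for Vwf and 5.44 for Cldn5). Robo4 went the other way, highest in N cells at 9.32 and 9.27, and was the marker that fell in VE+N against N cells (−0.42). Pecam1, Emcn and Cdh5 also had their highest mean in N cells. Undifferentiated stem cell markers lay between 2.86 and 4.80 on every array. The files hold no detection call. Log2 signals near that range are at the level of genes that endothelial cells are not known to express, and differences against them are approximate. Among the members this holds for Thbs2 in the 3 lines and for Postn, Tnc and Matn2 in VE+N cells. Among the other genes with large differences it holds for Edil3, Cd36, F3, Htra1 and Igfbp7 in VE+N cells, and for Pmepa1 and Fap in VE+N and VE cells. It also holds for Mmp3, Mmp9, Vgll3, Vtn and Dpt in VE+N and N cells, and for Stab2 and Thbs3 in N cells. The member Thbs1 lay slightly above the stem cell markers in VE+N cells, at 5.25 and 5.07, so its differences against that line are approximate too.

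Sequences upstream of the start site are shown for Ccn1, Postn and Tnc, whose signal fell in VE+N cells against both other lines, and for Thbs2, which passed no test. The sequences come from RefSeq (GRCm38.p6), whose promoter table holds 7 start sites of 5 members (Postn and Tnc with more than 1 each, Ccn1, Sparc and Thbs2 with 1), the others being Thbs1, Fn1, Ccn2 and Matn2. Each run is the 250 bases before the start site, 5′ to 3′ on the gene's strand, and capitals mark every match to the motifs searched. The motifs were GGAATG (bound by TEAD, the DNA partner of YAP/TAZ), CAGACA (a SMAD element), TGANTCA (AP-1), TATAAA (the TATA box) and the CArG box of SRF, on both strands. No match overlapped another. For Ccn1 the window is chr3:145649986-145650235 on the minus strand, for Postn chr3:54360857-54361106 on the plus strand (the downstream of the gene's start sites), for Tnc chr4:64047016-64047265 on the minus strand (the upstream start site) and for Thbs2 chr17:14694263-14694512 on the minus strand.
Ccn1: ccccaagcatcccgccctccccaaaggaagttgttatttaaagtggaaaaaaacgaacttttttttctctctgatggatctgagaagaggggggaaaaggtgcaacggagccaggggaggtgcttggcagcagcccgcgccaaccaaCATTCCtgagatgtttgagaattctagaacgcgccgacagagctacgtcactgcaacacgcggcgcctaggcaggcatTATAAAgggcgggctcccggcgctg
Postn: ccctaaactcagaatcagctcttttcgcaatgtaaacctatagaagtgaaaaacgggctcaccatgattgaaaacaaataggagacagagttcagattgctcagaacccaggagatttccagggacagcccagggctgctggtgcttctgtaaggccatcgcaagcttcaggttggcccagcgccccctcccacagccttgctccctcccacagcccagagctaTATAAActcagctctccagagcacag
Tnc: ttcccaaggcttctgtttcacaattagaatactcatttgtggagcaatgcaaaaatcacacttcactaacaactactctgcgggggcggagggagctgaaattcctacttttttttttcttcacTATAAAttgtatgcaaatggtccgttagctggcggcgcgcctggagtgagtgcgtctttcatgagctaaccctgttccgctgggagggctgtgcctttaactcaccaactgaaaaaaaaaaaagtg
Thbs2: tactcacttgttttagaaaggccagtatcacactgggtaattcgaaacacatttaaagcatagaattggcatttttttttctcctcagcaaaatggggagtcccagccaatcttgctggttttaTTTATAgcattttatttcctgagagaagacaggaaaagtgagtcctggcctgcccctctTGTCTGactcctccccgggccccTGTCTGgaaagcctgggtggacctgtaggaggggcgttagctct

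Ccn1 had a TATA match that began 25 bases before its start site, and Postn had one that began 26 bases before. In Tnc and Thbs2 the TATA match began 126 bases before the start site. The match in Thbs2 lay on the opposite strand (TTTATA as printed), unlike those of Ccn1, Postn and Tnc. TATAAA was present in 12.4% of 32851 such windows. Of the windows shown, the one of Ccn1 held the TEAD letters, 103 bases before the start site (12.6% of all windows). Thbs2 held the SMAD letters at 67 and 44 bases before the start site, Sparc at 36 bases and the downstream start site of Tnc at 71 bases (17.1% of all windows). AP-1 letters (6.75% of windows) and the CArG box (1.47%) had no match in the 7 windows of members. These matches describe letters and were not tested as binding sites.

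Among the 9 matricellular genes the mean was lowest in VE+N cells in each, for Thbs2 by a margin that did not keep its sign. Against N cells, 8 of 9 members fell and 0 rose, with Postn, Thbs1 and Matn2 the most reduced; 8.91% of all genes were called lower in this comparison, 10.2% higher and 19.1% in either direction. The fall was over 2-fold in 5 members, against 2.16% of all genes lower and 2.45% higher by that much. Against VE cells, 6 of 9 members fell and 0 rose, each over 2-fold, where 5.84% of all genes were called lower, 4.29% higher and 10.1% in either direction, with 1.97% lower and 0.547% higher by over 2-fold. VE cells had the highest mean in 7 of the 9, and 4 of 9 rose against N cells and 0 fell, with 8.46% of all genes called higher, 6.99% lower and 15.4% in either direction. Of these 4, 2 rose over 2-fold, as did 2.58% of all genes, while 1.23% fell by that much. The median log2 difference of the 9 members was −1.23 for VE+N against N, −1.59 for VE+N against VE and 0.361 for VE against N, while that of all genes was −0.00443, 0.0294 and −0.0215. A call means an adjusted p below 0.05 in limma, with the Benjamini-Hochberg adjustment made over all 19936 genes. Differences are signed, the first-named line minus the second, so that negative values mean a lower signal in the first. The 3 comparisons share lines, so they are not independent of each other. The members were chosen with earlier results of these data known, so the counts beside the shares of all genes are descriptive and no test of the list.

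Fibroblast and mesenchymal markers moved beside the matricellular genes. Of 12, 0 rose and 6 fell in VE+N against N cells, 8 rose and 1 fell in VE against N cells, and 0 rose and 11 fell in VE+N against VE cells. Their mean log2 signal was 4.64 and 4.38 in VE+N cells, 7.08 and 7.12 in VE cells and 5.46 and 5.44 in N cells. In these comparisons 19.1%, 15.4% and 10.1% of all genes were called in either direction, to be set beside the counts of each marker list. Dpt had log2 signals of 2.94 and 2.90 in VE+N cells, 9.63 and 9.78 in VE cells and 3.74 and 3.45 in N cells, and Pdgfra 5.21 and 5.30, 8.06 and 8.18, and 5.61 and 5.58 in the same order. Fap was the one that fell in VE against N cells (−1.64), and Thy1 lay between 4.84 and 5.11 on the 6 arrays. Of 11 mural markers, 0 rose and 6 fell in VE+N against N cells, 0 rose and 3 fell in VE against N cells, and 0 rose and 3 fell in VE+N against VE cells, with a mean log2 signal of 4.41 and 4.30 in VE+N, 5.06 and 5.18 in VE and 5.50 and 5.48 in N cells. The part of these marker genes in the matricellular result was not tested, and in whole cultures fewer cells of a type and less RNA per cell cannot be told apart. Of 8 haematopoietic and macrophage markers, Cd68 alone was called, lower in both other lines than in N cells and lower in VE+N than in VE cells, and the other 7 lay between 2.51 and 5.15.

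**Figure D1:**
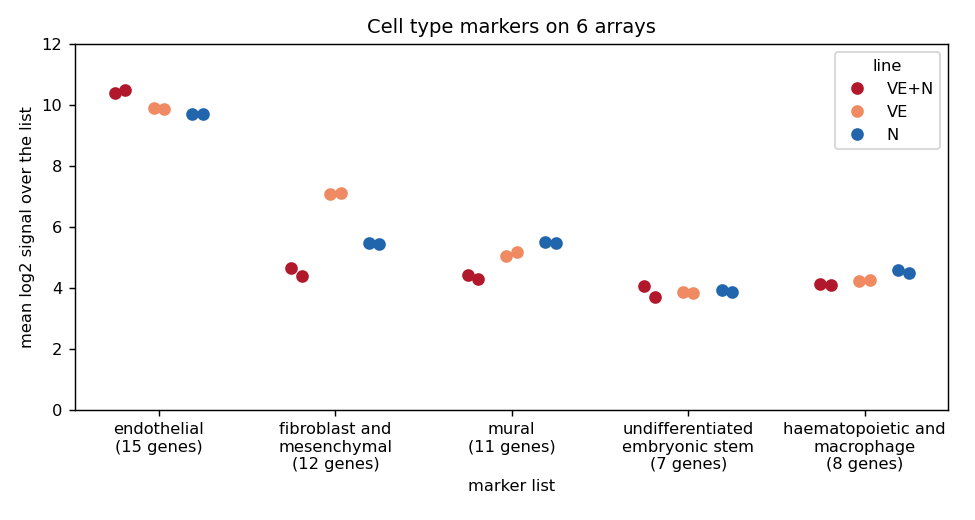
Mean log2 signal (vertical axis) over each list of cell type markers (horizontal axis, with the number of measured genes), one point per array, for the lines VE+N, VE and N. The endothelial list lies between 9.71 and 10.5 in every line, while the fibroblast and mesenchymal list is highest in VE cells (7.08 and 7.12) and lowest in VE+N cells (4.64 and 4.38).

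**Figure D2:**
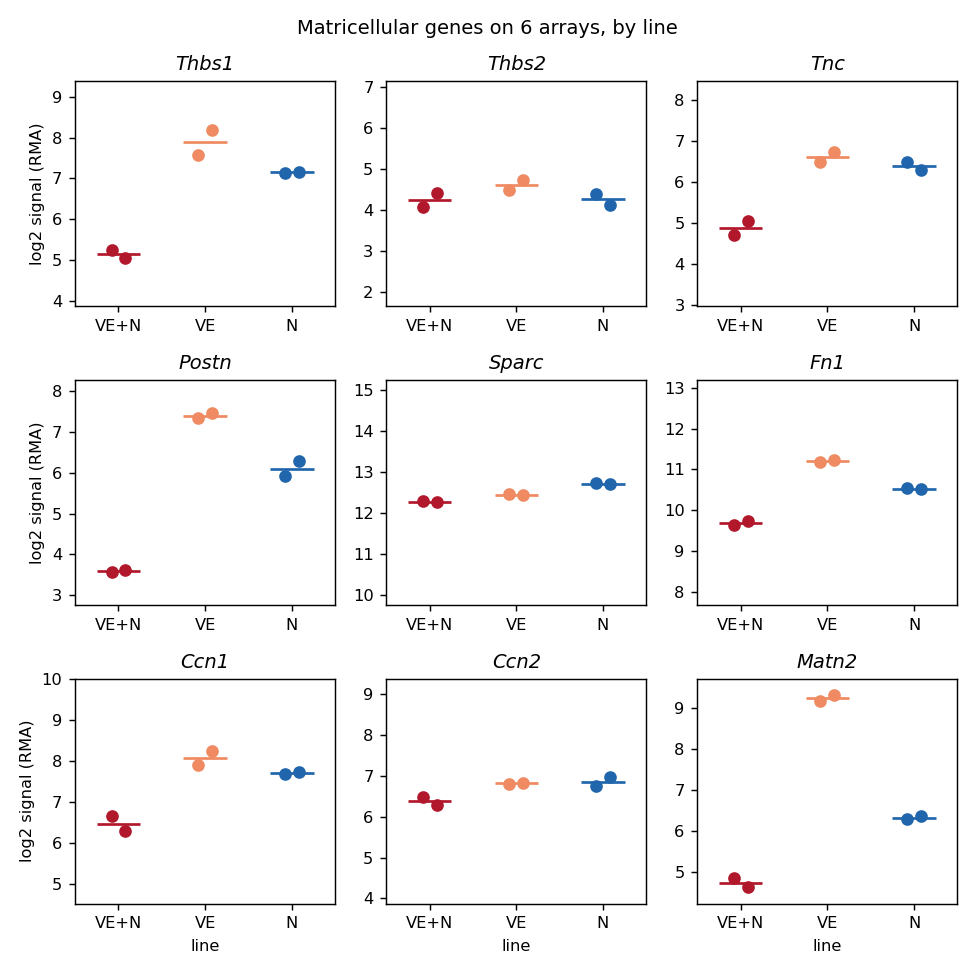
Log2 signal (RMA, vertical axis) of the 9 measured matricellular genes in the lines VE+N, VE and N (horizontal axis). Points are the 2 arrays of a line, bars their mean, and every panel spans the same number of log2 units. Postn, Thbs1, Matn2 and Tnc sit far lower on both VE+N arrays than on the other 4, while Thbs2 and Sparc move little.

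Thbs1 encodes thrombospondin-1, a trimeric glycoprotein that binds CD36 and CD47 and can activate latent TGF-beta. The log2 signal of Thbs1 (probe set 10474700) was 5.25 and 5.07 in VE+N cells, 7.58 and 8.19 in VE cells and 7.13 and 7.17 in N cells. Both VE+N arrays lay below all others, and the VE arrays lay above those of N cells without overlap. In VE+N cells Thbs1 fell 3.99-fold against N cells, by −1.996 ± 0.186 log2 units (SE, adjusted p = 0.000196), and by −2.73 ± 0.186 (adjusted p = 0.000105) against VE cells. The call against VE cells was lost with the adjusted analysis of variance that the methods name (adjusted p = 0.064). Thbs1 rose in VE cells against N cells by 0.73 ± 0.186 (adjusted p = 0.0333). That rise rests partly on VE replicate 2: without it the difference was 0.43 (adjusted p = 0.131), and the call was also lost with either N array left out (0.71 and 0.76, adjusted p = 0.125 and 0.102), in the fit on the 4 arrays of VE and N cells alone (adjusted p = 0.0573) and with median centring (0.63, adjusted p = 0.0521).

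Thbs2 encodes thrombospondin-2, which shares the anti-angiogenic repeats of thrombospondin-1. The log2 signal of Thbs2 (probe set 10447951) was 4.06 and 4.42 in VE+N cells, 4.48 and 4.73 in VE cells and 4.39 and 4.12 in N cells, low on every array. The arrays of VE+N and N cells overlapped. The log2 difference of Thbs2 for VE+N against N was −0.015, with a 95% interval from −0.384 to 0.354 (adjusted p = 0.969). For VE+N against VE it was −0.37 (adjusted p = 0.218), and it was 0.35 for VE against N (adjusted p = 0.208). The sign of its VE+N against N difference turned to 0.022 with quantile normalization again, to 0.12 without N replicate 1 and to 0.17 without VE+N replicate 1.

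Tnc encodes tenascin-C, a large multi-armed glycoprotein that loosens adhesion to fibronectin. Tnc (probe set 10513739) had a log2 signal that was 4.71 and 5.06 in VE+N cells, 6.49 and 6.73 in VE cells and 6.49 and 6.29 in N cells. The VE+N arrays were the low ones, and those of VE and N cells met at 6.49. Tnc fell in VE+N cells by −1.50 ± 0.151 log2 units against N cells (adjusted p = 0.000297) and by −1.73 ± 0.151 against VE cells (adjusted p = 0.000342). Tnc lost the call against VE cells with the adjusted analysis of variance that the methods name (adjusted p = 0.0734). Its VE against N difference was 0.22 (95% interval from −0.126 to 0.572, adjusted p = 0.416).

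Postn encodes periostin, a fasciclin-domain protein that binds integrins and helps collagen to be crosslinked. Its log2 signal (probe set 10492021) was 3.58 and 3.61 in VE+N cells, 7.33 and 7.45 in VE cells and 5.91 and 6.28 in N cells. The 3 lines did not overlap, and neighbouring lines differed by more than their spread. Postn fell in VE+N cells by −3.80 ± 0.135 against VE cells (13.9-fold, adjusted p = 6.16e-06) and by −2.50 ± 0.135 against N cells (5.65-fold, adjusted p = 1e-05). In VE cells it rose by 1.30 ± 0.135 against N cells (adjusted p = 0.000466), a call lost with the adjusted analysis of variance that the methods name (adjusted p = 0.0544).

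Matn2 encodes matrilin-2, an adaptor of filamentous networks found along basement membranes. Its log2 signal (probe set 10423599) was 4.87 and 4.63 in VE+N cells, 9.19 and 9.33 in VE cells and 6.29 and 6.37 in N cells. It had the widest range of line means among the 9 members, 4.51 log2 units. Matn2 fell in VE+N cells by −4.51 ± 0.117 against VE cells (22.8-fold, adjusted p = 1.95e-06) and by −1.58 ± 0.117 against N cells (3.0-fold, adjusted p = 5.74e-05). It rose in VE cells against N cells by 2.93 ± 0.117 (7.61-fold, adjusted p = 4.21e-06).

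Fn1 encodes fibronectin, which binds integrin alpha-5 beta-1 and is itself assembled into fibrils by cells. Fn1 (probe set 10355403) had a log2 signal that was 9.65 and 9.73 in VE+N cells, 11.19 and 11.23 in VE cells and 10.55 and 10.52 in N cells. The lines were well apart, with little spread within each. Fn1 fell in VE+N cells by −1.52 ± 0.0961 against VE cells (adjusted p = 7.42e-05) and by −0.84 ± 0.0961 against N cells (adjusted p = 0.000571), and rose in VE cells against N cells by 0.68 ± 0.0961 (adjusted p = 0.00232).

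Sparc encodes a collagen-binding protein that counters cell spreading. Its log2 signal (probe set 10386058) was 12.28 and 12.27 in VE+N cells, 12.45 and 12.42 in VE cells and 12.72 and 12.69 in N cells. The order differed from that of the members above, with N cells highest, and the whole range was 0.43 log2 units. Sparc fell in VE+N against N cells by −0.43 ± 0.0938 (adjusted p = 0.0145), a call lost without N replicate 1 (−0.42, adjusted p = 0.107) or N replicate 2 (−0.44, adjusted p = 0.0882). Neither its VE+N against VE difference (−0.16, adjusted p = 0.367) nor that of VE against N (−0.27, adjusted p = 0.102) was called, and the second passed with median centring (−0.38, adjusted p = 0.029), with a trended robust prior (adjusted p = 0.00305) and with the adjusted analysis of variance that the methods name (adjusted p = 0.0268).

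Ccn1, formerly Cyr61, and Ccn2, formerly Ctgf, encode heparin-binding CCN proteins that signal through integrins, and both are standard readouts of YAP/TAZ. The log2 signal of Ccn1 (probe set 10502655) was 6.65 and 6.29 in VE+N cells, 7.89 and 8.23 in VE cells and 7.67 and 7.73 in N cells. Its VE+N arrays were the low ones. Ccn1 fell in VE+N cells by −1.59 ± 0.157 against VE cells (adjusted p = 0.00061) and by −1.23 ± 0.157 against N cells (adjusted p = 0.00101), and its difference of 0.36 for VE against N did not pass (adjusted p = 0.186). Both calls were lost with the adjusted analysis of variance that the methods name (adjusted p = 0.0845 against VE cells and 0.0714 against N cells).

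The log2 signal of Ccn2 (probe set 10362201) was 6.48 and 6.28 in VE+N cells, 6.79 and 6.83 in VE cells and 6.74 and 6.96 in N cells. The VE arrays lay inside the range of the N arrays. Ccn2 fell in VE+N against N cells by −0.47 ± 0.119 (adjusted p = 0.0275), less than Ccn1 in size, though the difference between both genes was not tested. The call was lost without N replicate 2 (−0.36, adjusted p = 0.192), without VE+N replicate 2 (−0.37, adjusted p = 0.118) and in the fit on the 4 arrays of VE+N and N cells alone (adjusted p = 0.0565). Its difference of −0.43 for VE+N against VE did not pass (adjusted p = 0.0618), but did with a trended robust prior (adjusted p = 0.0306) and after removal of the dimmest 25% of genes (adjusted p = 0.0392). For VE against N it was −0.04 (adjusted p = 0.882), and 0.067 without N replicate 2.

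**Figure D3:**
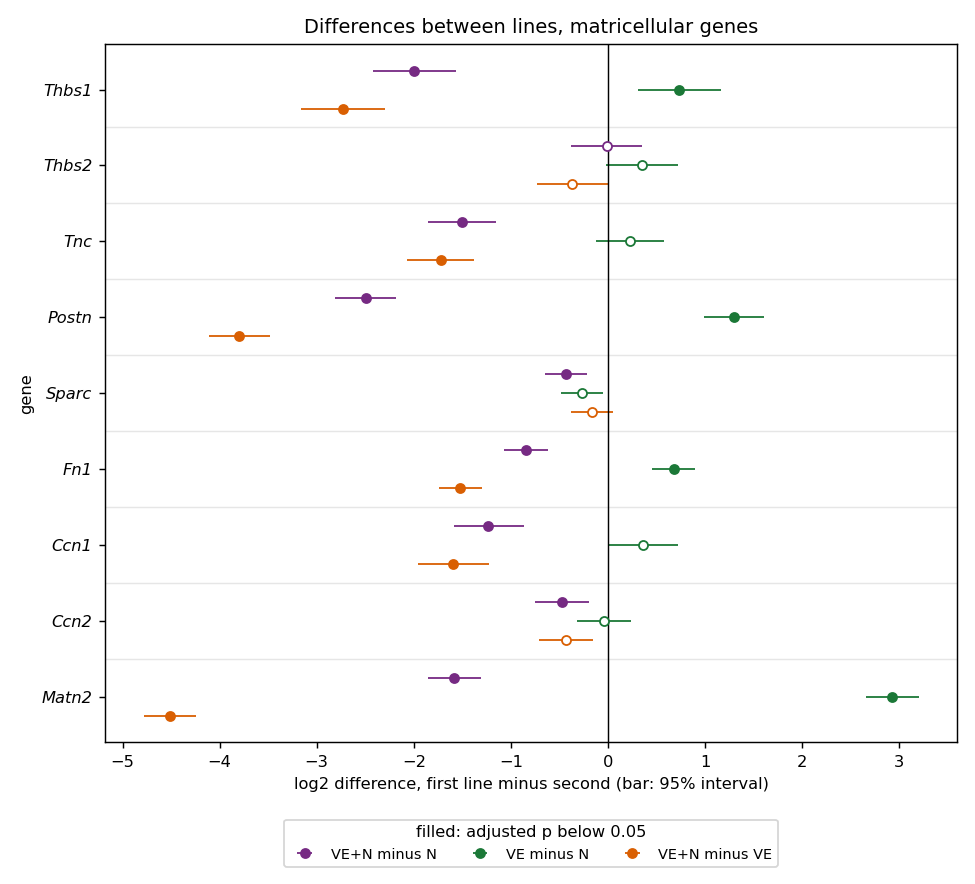
Log2 differences (horizontal axis) of the 9 matricellular genes (vertical axis) for VE+N minus N, VE minus N and VE+N minus VE, with 95% intervals from limma. Filled points have an adjusted p below 0.05. The Matn2 and Postn points lie farthest to the left for VE+N minus VE, at −4.51 and −3.80, and no filled VE minus N point lies left of 0.

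Among 39 measured genes of 40 that encode related matrix proteins (other thrombospondins, tenascins, CCN and SPARC family proteins, fibulins, SIBLING proteins and emilins), movement went both ways. In VE+N against N cells 8 rose and 6 fell, in VE against N cells 7 rose and 1 fell, and in VE+N against VE cells 2 rose and 6 fell. Of all genes, 19.1%, 15.4% and 10.1% were called in these comparisons, so nothing is read from the counts about the list itself. Its median log2 differences were −0.0733, 0.0381 and −0.0162. The endothelial matrix protein gene Mmrn2 rose by 3.37 ± 0.136 in VE+N and 2.44 ± 0.136 in VE cells, each against N cells. Edil3, an integrin ligand of endothelium, fell in VE+N cells by −4.09 ± 0.129 against VE cells and by −3.34 ± 0.129 against N cells, to log2 signals of 2.41 and 2.76 on the VE+N arrays.

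Within the CCN family the members did not move alike. Ccn3 (formerly Nov) rose in VE+N against N cells by 1.97 ± 0.169 and in VE against N cells by 2.05 ± 0.169. Ccn4 (formerly Wisp1) fell in VE+N against VE cells by −1.17 ± 0.163. Thbs3, a pentameric thrombospondin, rose in VE against N cells by 1.12 ± 0.106. The elastic fibre gene Fbln2 fell in VE+N cells against both other lines (−1.52 and −1.34, SE 0.178), Igfbp7 fell in VE+N against VE cells (−1.63 ± 0.171), and vitronectin (Vtn) rose in VE against N cells (0.99 ± 0.168). The adjusted p-values of the named changes of related matrix genes, those of Mmrn2 and Edil3 included, lay between 1.93e-06 (Edil3, VE+N against N) and 0.00573 (Vtn). With the adjusted analysis of variance that the methods name, Fbln2 lost its calls against N cells (adjusted p = 0.0695) and VE cells (adjusted p = 0.129). The named calls of Igfbp7 (adjusted p = 0.0929), Ccn4 (adjusted p = 0.131) and Vtn (adjusted p = 0.136) were lost with it too. Vtn no longer passed when VE replicate 1 was left out (0.81, adjusted p = 0.0558).

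Receptors of the matricellular proteins were called in both directions. Of 22, 5 rose and 11 fell in VE+N against N cells, 10 rose and 6 fell in VE against N cells, and 3 rose and 10 fell in VE+N against VE cells, against 19.1%, 15.4% and 10.1% of all genes called in either direction. Cd36, the thrombospondin receptor of microvascular endothelium, had log2 signals of 4.02 and 3.69 in VE+N cells, 5.72 and 5.18 in VE cells and 6.95 and 7.01 in N cells. It fell against N cells by −3.13 ± 0.186 in VE+N and −1.53 ± 0.186 in VE cells. The second call was lost with the adjusted analysis of variance that the methods name (adjusted p = 0.0872). Cd36 was thus highest in N cells, whereas Thbs1 was highest in VE cells.

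The integrin subunit gene Itga8, whose product pairs with beta-1 and binds several matricellular proteins, rose in VE+N cells by 3.92 ± 0.172 against N and 2.98 ± 0.172 against VE cells. Itgb5, the partner of alpha-v in a vitronectin and periostin receptor, fell in VE+N against VE cells by −2.13 ± 0.1, and Itga3 fell in VE+N against N cells by −2.20 ± 0.1. Stab2, a scavenger receptor that clears hyaluronan, rose by 4.52 ± 0.116 in VE+N and 4.47 ± 0.116 in VE cells against N cells. Lrp1, which takes up thrombospondins, fell in VE+N against VE cells by −2.29 ± 0.127, as did the collagen receptor Ddr2 by −1.90 ± 0.193. With the adjusted analysis of variance that the methods name, Ddr2 (adjusted p = 0.0946) and Itga8 (adjusted p = 0.0564) lost their calls against VE cells. In VE against N cells, Vldlr rose by 1.75 ± 0.132 and the fibronectin co-receptor Sdc4 by 1.63 ± 0.105.

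**Figure D4:**
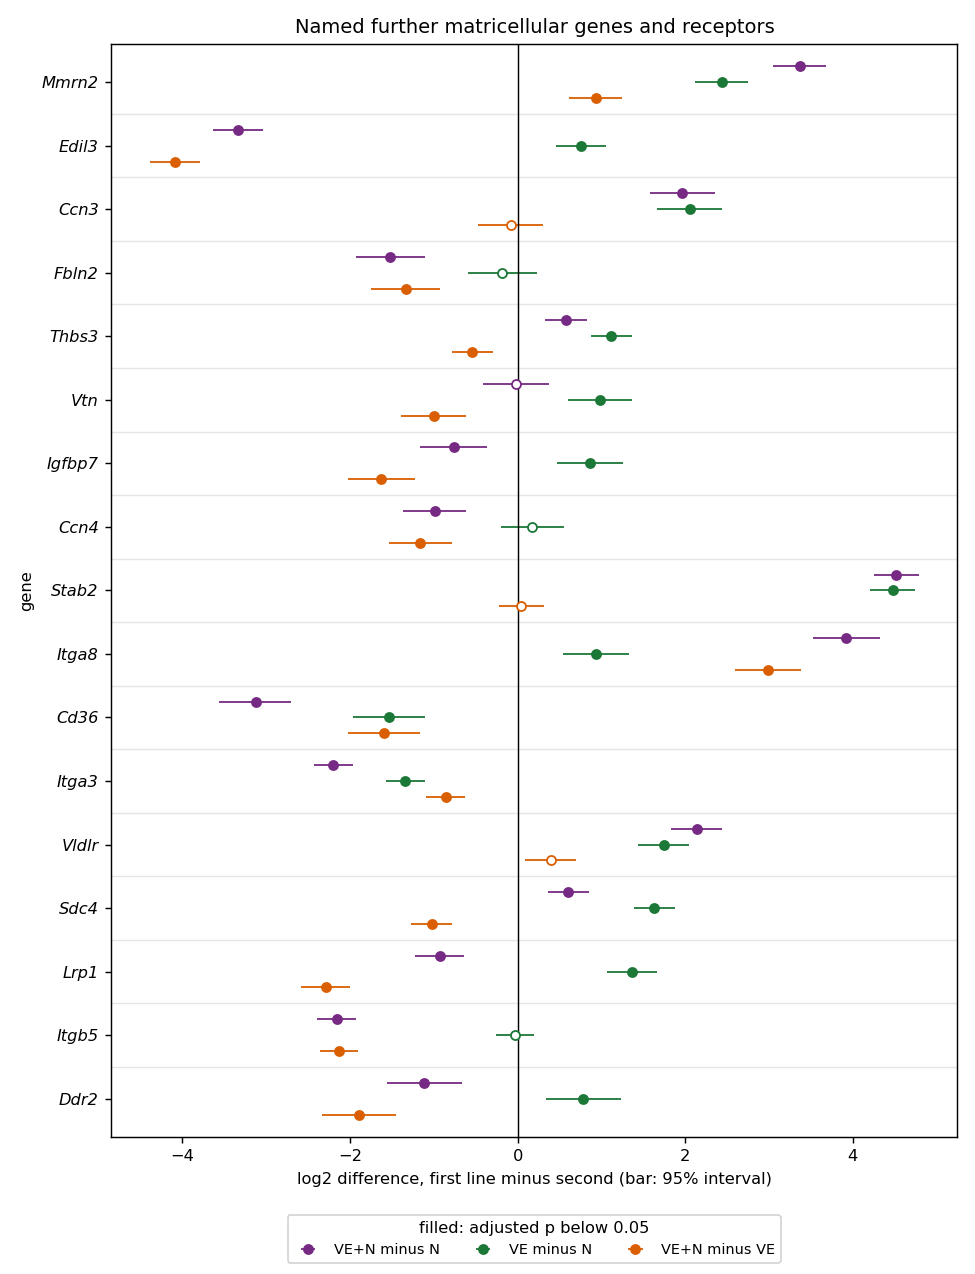
Log2 differences (horizontal axis, with 95% intervals) of the named related matrix genes and receptors (vertical axis) in the 3 comparisons of lines. Filled points have an adjusted p below 0.05. Edil3 and Cd36 lie left of 0 for VE+N minus N (−3.34 and −3.13), and Mmrn2, Itga8 and Stab2 right of it (3.37, 3.92 and 4.52).

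Genes that act upstream of Ccn1, Ccn2 and Thbs1 through YAP/TAZ, TGF-beta and SRF were also counted. Of 25, 5 rose and 3 fell in VE+N against N cells, 5 rose and 3 fell in VE against N cells, and 2 rose and 4 fell in VE+N against VE cells. Of all genes, 19.1%, 15.4% and 10.1% were called in either direction in these comparisons. Yap1 and Wwtr1, which encode YAP and TAZ, and Srf passed the test in none of the 3 comparisons. Tead1, a DNA partner of YAP/TAZ, fell in VE+N cells by −1.06 ± 0.178 against N cells (adjusted p = 0.00423) and by −0.90 ± 0.178 against VE cells (adjusted p = 0.0161). Without VE replicate 2 the second call did not hold (−0.71, adjusted p = 0.129), nor without VE+N replicate 1 (−0.69, adjusted p = 0.0712). The kinase gene Lats2, which restrains YAP and is also its target, rose by 0.80 ± 0.114 and Mrtfb, a partner of SRF, by 0.76 ± 0.104 in VE+N against N cells. With the adjusted analysis of variance that the methods name, Tead1 lost its calls against N cells (adjusted p = 0.12) and VE cells (adjusted p = 0.209). The call of Lats2 was lost with it too (adjusted p = 0.0522).

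Vgll3, another TEAD partner, had log2 signals of 4.22 and 3.69 in VE+N cells, 8.56 and 7.36 in VE cells and 3.84 and 3.87 in N cells. It was high in VE cells only, with a wide spread between their arrays, and differed by 4.11 ± 0.341 for VE against N and −4.01 ± 0.341 for VE+N against VE. Both calls were lost with the adjusted analysis of variance that the methods name (adjusted p = 0.0593 and 0.0875). The TGF-beta receptor gene Tgfbr1 rose against N cells by 0.75 ± 0.112 in VE+N and 0.98 ± 0.112 in VE cells. With the same analysis of variance its VE+N against N call was lost (adjusted p = 0.0513). The calls of Tgfb3 and Tead3 given next were lost with it too (adjusted p from 0.0552 to 0.159). Tgfb3 rose in VE against N cells by 0.97 ± 0.119 and fell in VE+N against VE cells by −0.77 ± 0.119, which did not pass without VE replicate 2 (adjusted p = 0.0593). Tead3 rose in VE against N cells by 0.74 ± 0.131 and fell in VE+N against VE cells by −0.68 ± 0.131, and both calls were lost without single arrays (adjusted p up to 0.116).

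Of 18 measured further targets of YAP/TAZ and TGF-beta out of 19, 5 rose and 5 fell in VE+N against N cells, 6 rose and 3 fell in VE against N cells, and 2 rose and 7 fell in VE+N against VE cells. The shares of all genes called in either direction were 19.1%, 15.4% and 10.1%. Of these targets, Tgm2 also stands among the enzymes, Lats2 among the upstream genes, Tgfbi and Fstl1 among the related matrix genes and Col1a1 among the fibroblast markers. Tissue factor (F3) fell in VE+N cells by −2.17 ± 0.143 against N and −3.21 ± 0.143 against VE cells, and the receptor kinase gene Axl by −2.27 ± 0.138 against VE cells. With the adjusted analysis of variance that the methods name, the VE+N against VE calls of Axl (adjusted p = 0.0513) and Ankrd1 (adjusted p = 0.23) were lost. Pmepa1, a TGF-beta target, fell against N cells by −5.47 ± 0.153 in VE+N and −5.41 ± 0.153 in VE cells. Gadd45b rose against N cells by 2.00 ± 0.118 in VE+N and 1.78 ± 0.118 in VE cells. Col1a1 rose by 3.40 ± 0.138 in VE against N cells and fell by −3.51 ± 0.138 in VE+N against VE cells. Ankrd1 fell in VE+N against VE cells by −1.80 ± 0.339 (adjusted p = 0.0132), a call lost without either VE+N array (adjusted p = 0.0829 and 0.0741).

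Enzymes that cleave or crosslink the members were also counted. Of 22 measured out of 23, 3 rose and 11 fell in VE+N against N cells, 6 rose and 6 fell in VE against N cells, and 2 rose and 8 fell in VE+N against VE cells. The shares of all genes called in either direction were 19.1%, 15.4% and 10.1%. Tgm2, the transglutaminase that crosslinks fibronectin, fell by −4.06 ± 0.0975 in VE+N and −3.38 ± 0.0975 in VE cells against N cells. Tll1, a protease of the BMP-1 family whose members process matrix proteins, rose by 2.78 ± 0.123 and 1.57 ± 0.123 in the same comparisons. The stromelysin gene Mmp3 and the serine protease gene Htra1 rose in VE against N cells, by 3.50 ± 0.267 and 2.75 ± 0.177. Both fell in VE+N against VE cells (−4.42 ± 0.267 and −3.72 ± 0.177), together with the gelatinase genes Mmp2 (−1.91 ± 0.129) and Mmp9 (−1.38 ± 0.131). With the adjusted analysis of variance that the methods name, the VE+N against VE calls of 3 genes were lost. They were Mmp3 (adjusted p = 0.062), Mmp2 (adjusted p = 0.0539) and Mmp9 (adjusted p = 0.0714). The VE against N call of Mmp3 was lost with it too (adjusted p = 0.0506). Adamts4 fell by −1.61 ± 0.121 and the plasminogen activator gene Plat by −1.10 ± 0.129 in VE+N against N cells.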

How the data were processed

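RNA of 3 mouse endothelial lines was measured on Affymetrix whole-transcript gene arrays, 2 per line, grouped by the line in their titles. The authors' deposited log2 values come from RMA in Partek 6.3, as the submitters' processing notes state. RMA corrects background, normalizes by quantiles and summarizes probe sets. The log2 scale was read from the range of values, and nothing was normalized again. Of 35556 probe sets, 21789 carried 1 gene symbol, 1621 several and 12146 none. Symbols were updated through Entrez identifiers (21698) or accessions (3) or kept (88), and the probe set with the highest mean was used for 1001 genes with several, which left 19936 genes.

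Line means were compared with limma 3.58.1 in R 4.3.3 over all 6 arrays (3 residual and 4.89 prior degrees of freedom), after a test on simulated data. P-values are limma's, adjusted by Benjamini-Hochberg within each of the 3 comparisons. Values after ± are SEs of log2 differences. The small number of arrays limits the precision.

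The members, the 5 further gene lists and the 5 marker lists were chosen with earlier results of these data known. From each further list, up to 4 called genes per comparison with the largest differences were named, with Cdh2 and Cdh5, and other genes are named after their values were seen. The alternatives were fits on 4 arrays, a replicate block, a trended robust prior, median centring, quantile normalization again, removal of the dimmest 25% of genes, the mean of a gene's probe sets, the methods' analysis of variance with and without adjustment, and each array left out in turn. With 1 array left in a line, its spread is assumed to be that of the others.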

Additional observations from a re-analysis of the deposited data

How the results depend on the processing

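Leaving out an array of the line not compared repeats the fit on the 4 arrays of the compared lines. Apart from these repeats, the 15 alternatives gave 351 recomputed differences of the members. Each member has 1 probe set, so the mean of a gene's probe sets left its signal unchanged. The fit on 4 arrays, the replicate block, the trended robust prior, removal of the dimmest genes and both analyses of variance also kept each log2 difference. In all of these the direction was fixed, and only the call could change. Of the 351, 320 kept their direction and their side of the threshold, 22 were no longer called, 5 became called and 4 turned sign, none of the last called before or after. The turned ones were Thbs2 for VE+N against N (0.022 with quantile normalization again, and −0.197 to 0.167 with single arrays left out) and Ccn2 for VE against N (−0.15 to 0.067 with single arrays left out). All calls of Matn2, and those of Postn in VE+N cells, held under every alternative. With the analysis of variance that the methods name, adjusted by Benjamini-Hochberg, the members called in VE+N against VE fell to 3 of 9. With it 6 passed in VE+N against N (all lower), and 3 passed in VE against N, of which 2 were higher and 1, Sparc, lower. The calls lost were those of Thbs1, Tnc and Ccn1 for VE+N against VE. Ccn1 and Ccn2 lost theirs for VE+N against N, and Thbs1 and Postn for VE against N. At the methods' threshold of unadjusted p and fold over 2, the numbers of members were 5 for VE+N against N, 2 for VE against N and 6 for VE+N against VE. Over all genes, the analysis of variance with adjustment called 1867, 1276 and 311 genes for VE+N against N, VE against N and VE+N against VE, and its unadjusted p with a fold over 2 called 909, 751 and 493, where limma called 3802, 3079 and 2020. Leaving out single arrays gave 2243 to 3800, 1688 to 3356 and 966 to 2049 genes, and 6 to 8, 3 to 4 and 6 members, in the same order of comparisons. The lowest gene counts came without N replicate 1, VE replicate 2 and VE replicate 2, and the lowest member count for VE+N against N without N replicate 2. Each such fit also has fewer arrays, and the cause of these moves was not tested.

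The replicate numbers are not given as pairs by the labels, and the same-numbered arrays' deviations correlated across genes by 0.123 (VE+N with N), −0.00504 (VE with N) and 0.0689 (VE+N with VE). The replicate block gave 3864, 3056 and 2055 genes, with 8, 4 and 6 members. Median centring moved the median over all genes to −0.13 for VE against N and 0.117 for VE+N against VE. The share of higher genes among those called became 34.9% in place of 54.8% for the first and 60.8% in place of 42.3% for the second.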
